A study of Mus musculus with 6 samples.

Results

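Glycolysis splits glucose into pyruvate in the cytosol, and proliferating lymphocytes convert much of that pyruvate to lactate and export it. MYC, a growth-promoting transcription factor, and hypoxia-inducible factor 1 (HIF-1), a transcription factor that is degraded when oxygen is present, are both known to activate genes of glucose uptake, glycolysis and lactate handling. Many steps can be served by several genes, whose enzymes differ in regulation and in the tissues that use them. Here 33 such genes, chosen by name from these roles, were followed through the deposited expression table: 26 of glucose uptake, glycolysis, lactate transport and control of pyruvate dehydrogenase, and 7 of the HIF pathway. All 33 were matched by name, each in a row of its own, among the 21307 rows of the table, and all 33 passed the filter on low values that left 10856 rows for comparison.

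The cells were bone marrow B cells of pre-tumoral mice aged 6 to 8 weeks on a C57BL/6 x 129S1/SvlmJ background, with the genotype E-mu-myc;Prmt5F/FCreER in both conditions. The Eµ-myc transgene drives MYC from an immunoglobulin enhancer, so MYC was transgenic in treated and control cells alike, and CreER is a Cre recombinase that 4-hydroxytamoxifen (4-OHT) switches on. One condition received 4-OHT at 50 nM for 24 h to delete Prmt5, an arginine methyltransferase gene, and the other received ethanol as vehicle. Both were then washed, cultured for 5 more days and grown with interleukin 7 at 5 ng/µl. The 3 libraries treated with 4-OHT are titled PT and the 3 ethanol libraries WT, although the labels give all 6 the same genotype. The series' design text names a contrast of wild-type with pre-tumoral animals instead. The treatment labels and the table's own condition names were followed here.

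The table gives 1 FPKM value per gene and condition (fragments mapped to a gene, scaled to transcript length and library size). No value therefore has a replicate error, whether libraries of the conditions overlapped cannot be seen, and no difference was tested. Differences are described as a log2 ratio, 4-OHT over ethanol, after 1 was added to each FPKM value, and folds are on the same scale. The added 1 makes differences of low genes look smaller than they are. Prmt5 stood at 5.71 FPKM in 4-OHT and 41.6 FPKM in ethanol (log2 ratio -2.67), and Myc at 213 and 402 FPKM in 4-OHT and ethanol (-0.91). The conditions also differed in markers of cell types, whose values are given with the genes they moved with. In bulk RNA, fewer cells of a type and less RNA per cell cannot be told apart.

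As a group the 33 genes lay close to the whole table. In 4-OHT, 15 of them were higher and 18 lower, against a background of 44.9% higher and 55.1% lower among all compared rows. At least 2-fold higher were 4 members (12.1% of 33), where 10.4% of all rows were. No member was at least 2-fold lower, where 2.58% of all rows were. At 1.5-fold, 5 members were higher and 5 lower (15.2% each), against 19.5% and 12.8% of all rows. The median log2 ratio was -0.04 over the members and -0.07 over all compared rows. None of these shares stands far from that of the table. The 5 higher members past 1.5-fold were Pfkfb4, Hk3, Ldhb, Slc2a3 and Slc16a3, and the 5 lower ones were Vegfa, Pdk1, Eno1, Pgk1 and Slc16a1. Slc16a1 was the one of these that no longer reached 1.5-fold under median-of-ratios scaling or quantile normalization, which left 4 lower. Genes of the same step had opposite signs for Pfkfb3 and Pfkfb4, for Ldha and Ldhb, and for Slc16a1 and Slc16a3.

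**Figure D1:**
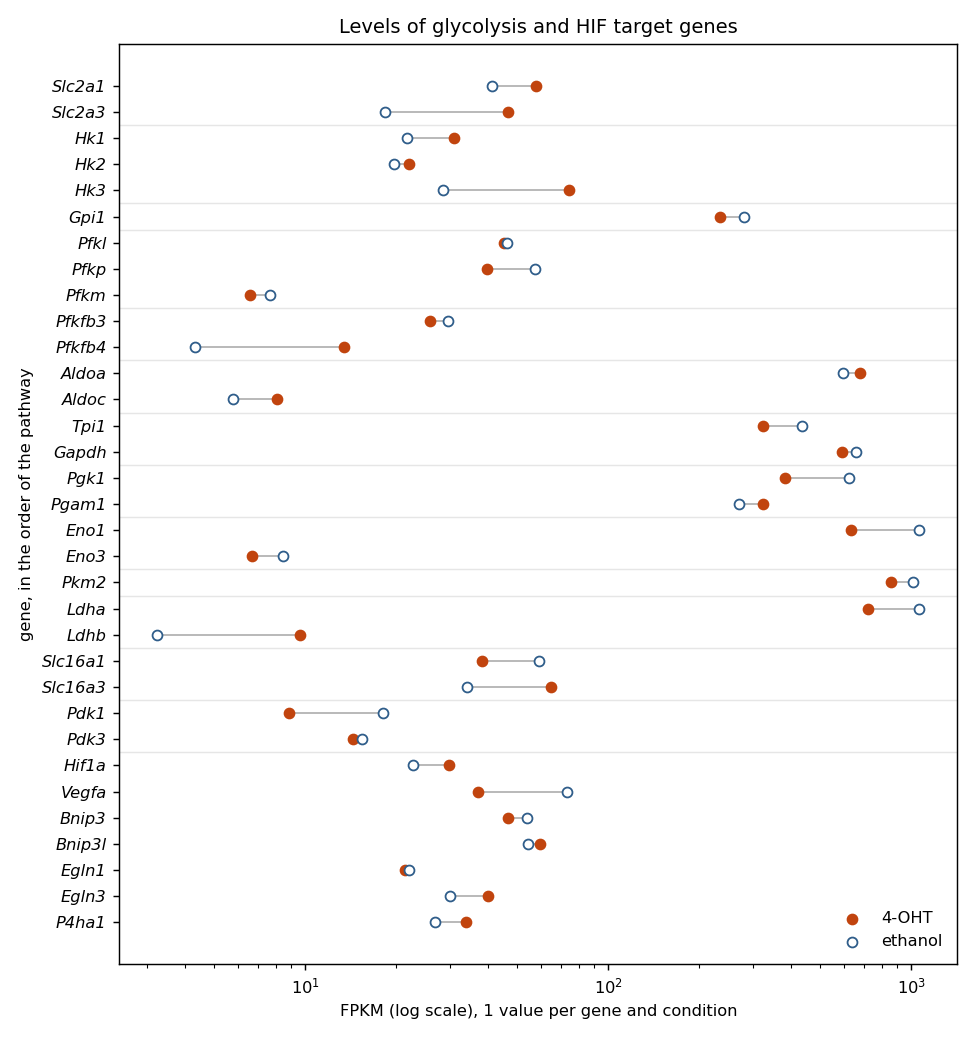
FPKM of each of the 33 genes in 4-OHT (filled) and ethanol (open), 1 value per gene and condition, on a log axis, in the order of the pathway with grey lines between steps. Values run from 6.57 FPKM (Pfkm) to 859 FPKM (Pkm2) in 4-OHT and from 3.25 FPKM (Ldhb) to 1064 FPKM (Ldha) in ethanol, and the longest lines are those of low or middle isoforms such as Slc2a3, Hk3, Pfkfb4 and Ldhb.

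Promoter sequences are shown for 4 of the genes because HIF-1 and MYC read short DNA words close to transcription starts. Pfkfb4 had the highest ratio of the members, and Pdk1, Pgk1 and Ldha are textbook HIF targets that were lower in 4-OHT. Each window holds 250 bases before and 50 after the most upstream start in the RefSeq table of build GRCm38.p6, on the plus strand, 5′ to 3′. Capitals mark the HIF core words ACGTG and GCGTG and the MYC E-box CACGTG, on either strand. An E-box contains ACGTG on both strands and so counts as 2 core words as well.
Pfkfb4 (chr9:108991652-108991951): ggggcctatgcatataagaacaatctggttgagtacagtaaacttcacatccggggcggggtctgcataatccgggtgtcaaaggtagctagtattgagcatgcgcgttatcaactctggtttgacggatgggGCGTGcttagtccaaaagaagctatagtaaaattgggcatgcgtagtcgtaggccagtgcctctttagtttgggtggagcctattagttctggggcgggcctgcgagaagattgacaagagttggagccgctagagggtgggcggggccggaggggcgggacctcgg
Pdk1 (chr2:71872974-71873273): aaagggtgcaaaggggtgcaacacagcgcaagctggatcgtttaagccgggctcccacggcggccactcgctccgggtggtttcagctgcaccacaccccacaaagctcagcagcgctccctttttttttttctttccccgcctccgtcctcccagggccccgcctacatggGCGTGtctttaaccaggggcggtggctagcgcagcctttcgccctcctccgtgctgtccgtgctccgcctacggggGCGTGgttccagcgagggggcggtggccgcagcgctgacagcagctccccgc
Pgk1 (chrX:106186850-106187149): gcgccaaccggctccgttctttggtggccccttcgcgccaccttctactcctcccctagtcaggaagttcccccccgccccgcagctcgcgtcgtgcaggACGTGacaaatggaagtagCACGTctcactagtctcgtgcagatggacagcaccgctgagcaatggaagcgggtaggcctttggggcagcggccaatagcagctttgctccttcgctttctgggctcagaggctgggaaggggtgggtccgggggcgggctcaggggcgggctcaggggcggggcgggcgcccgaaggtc
Ldha (chr7:46845554-46845853): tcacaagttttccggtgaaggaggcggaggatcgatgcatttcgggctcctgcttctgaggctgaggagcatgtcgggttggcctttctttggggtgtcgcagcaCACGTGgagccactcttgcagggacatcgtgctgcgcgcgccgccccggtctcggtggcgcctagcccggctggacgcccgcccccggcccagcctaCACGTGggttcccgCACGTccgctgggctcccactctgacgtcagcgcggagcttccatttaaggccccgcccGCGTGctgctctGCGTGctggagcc

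The words differ in number and place among these windows. Pfkfb4 holds 1 core word, with its first base at position -117 from the start. Pdk1 holds 2, at -78 and -2, and Pgk1 holds 2, at -150 and -131. Ldha holds 2 E-boxes, at -145 and -48, and 7 core words when those within the E-boxes are counted. Of the 33 genes, 31 had a window, and Slc2a3 and Bnip3l had none among the promoter sequences used. A core word stood in 25 of the 31 windows (80.6%), where 64.1% of the windows of 7888 genes of compared rows and 43.8% of those of all 27025 genes in the promoter table held one. The difference lay in ACGTG, in 58.1% of the member windows and 26.6% of those of compared genes, more than in GCGTG, at 54.8% and 52.6%. Core words were common among members of either direction. They stood in 11 of 13 windows of genes that were higher in 4-OHT and in 14 of 18 of genes that were lower. The windows without a core word, and so without an E-box, included that of Vegfa, a HIF target with the lowest ratio of the 33. The others were those of Tpi1, Gpi1 and Pkm2, which were lower in 4-OHT, and of Aldoa and Hk1, which were higher. E-boxes stood in 1 of the 13 and in 4 of the 18, counts too small to compare the directions. Together these were 16.1% of the member windows, where 10.8% of the windows of compared genes held an E-box. These counts describe letters only, and no binding was measured.

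Glucose enters cells through transporters of the SLC2A family, and both listed members were higher in 4-OHT. Slc2a3 encodes GLUT3, a high-affinity transporter of neurons, platelets and white blood cells. It stood at 46.7 FPKM in 4-OHT and 18.4 FPKM in ethanol, a 2.46-fold difference (log2 ratio 1.30; chromosome 6, 122677827 to 122692763 on mm9). Slc2a1, which encodes GLUT1, the main transporter of activated and MYC-driven lymphocytes, stood at 57.7 and 41.5 FPKM in 4-OHT and ethanol (0.47). Slc2a1 was the more abundant transcript in both conditions, but its share of the summed FPKM of both genes was 55.3% in 4-OHT and 69.3% in ethanol. The sum itself was 104 FPKM in 4-OHT and 59.9 FPKM in ethanol.

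Hexokinases phosphorylate glucose and hold it in the cell. Hk3, a form found mainly in myeloid cells, stood at 74.2 FPKM in 4-OHT and 28.4 FPKM in ethanol (2.55-fold, log2 ratio 1.35; chromosome 13, 55050793 to 55122746). Hk1, the form of most tissues, stood at 31.0 and 21.6 FPKM in 4-OHT and ethanol (0.50). Hk2, the inducible form that MYC and HIF-1 are known to activate, stood at 22.0 and 19.6 FPKM (0.16). Hk3 was thus the most abundant hexokinase transcript in both conditions. Its share of the hexokinase sum was 58.3% in 4-OHT and 40.8% in ethanol, whereas Hk2 held 17.3% and 28.2%. Summed hexokinase was 127 FPKM in 4-OHT and 69.7 FPKM in ethanol.

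Markers of myeloid cells and platelets were higher in the same comparison. All 13 compared neutrophil markers were at least 2-fold higher in 4-OHT, with a median log2 ratio of 3.10 and a summed level of 3834 FPKM in 4-OHT against 464 FPKM in ethanol. They ran from Mmp8, a neutrophil collagenase gene (1.58), to Ms4a3, a gene of granulocyte precursors (3.81), and Ngp, a granule gene, was the most abundant, at 1269 and 125 FPKM in 4-OHT and ethanol. Of 14 compared monocyte and macrophage markers, 11 were at least 2-fold higher (sums of 2085 and 927 FPKM in 4-OHT and ethanol). Their median was 1.12, from Csf1r, the gene of the macrophage growth factor receptor (0.74), to the complement gene C1qa (1.53), and the heme oxygenase gene Hmox1 (1.32) was the most abundant. Of 12 megakaryocyte and platelet markers, 11 were at least 2-fold higher (sums of 1049 and 295 FPKM in 4-OHT and ethanol). Their median was 1.69, from the platelet glycoprotein gene Gp6 (0.86) to a row that merges Gp1bb with Sept5 (2.18), with the chemokine gene Pf4 (1.90) the most abundant. The 15 early B cell markers were all lower (13 of 15 under median-of-ratios scaling), including 6 past 2-fold. Their median was -0.80 and their sums were 1225 FPKM in 4-OHT and 2451 FPKM in ethanol, from Vpreb1 (-1.96), a surrogate light chain gene, to Rag1 (-0.03), a recombinase gene, with Vpreb3 (-1.07), a gene of B cell precursors, the most abundant. The erythroid list had 4 compared genes and a median of 1.25, from the carbonic anhydrase gene Car2 (-0.76) to the transcription factor gene Gata1 (1.66). Sums cover all matched genes of a list, and none of these was listed at 0 in either condition. The log2 ratios of Hk3 (1.35) and Slc2a3 (1.30) lay between the medians of the macrophage and the platelet markers. Which cells the transcripts came from, and the part of these cell types in the ratios, was not tested.

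The next reactions lead up to and include the step that commits the sugar to glycolysis, and none of their listed transcripts differed by 1.5-fold. Gpi1, glucose-6-phosphate isomerase, stood at 234 FPKM in 4-OHT and 280 FPKM in ethanol (log2 ratio -0.26). Phosphofructokinase 1, the main control point, is built from subunits of 3 genes. Pfkp, the platelet-type subunit that proliferating cells also use, stood at 39.9 and 57.2 FPKM in 4-OHT and ethanol (-0.51), 1.42-fold lower in 4-OHT. Pfkl, the liver-type subunit, was near equal at 45.4 and 46.3 FPKM (-0.03, or 0.05 when the conditions were scaled by the median of ratios), and Pfkm, the muscle-type subunit, was low at 6.57 and 7.66 FPKM (-0.19). The most abundant subunit was Pfkl in 4-OHT (49.4% of the sum) and Pfkp in ethanol (51.5%).

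Bifunctional PFKFB enzymes make and break fructose 2,6-bisphosphate, an activator of phosphofructokinase 1. Pfkfb4, a HIF target gene, stood at 13.5 FPKM in 4-OHT and 4.32 FPKM in ethanol (chromosome 9, 108893947 to 108934739). Its log2 ratio of 1.44, a 2.72-fold difference, was the highest of the 33 and the 436th highest of the 10856 compared rows. Pfkfb3, the form with the strongest kinase activity and also a HIF target, stood at 25.9 and 29.5 FPKM in 4-OHT and ethanol (-0.18). The share of Pfkfb4 in the sum of both was 34.2% in 4-OHT and 12.7% in ethanol, while the sum was 39.3 and 33.9 FPKM.

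**Figure D2:**
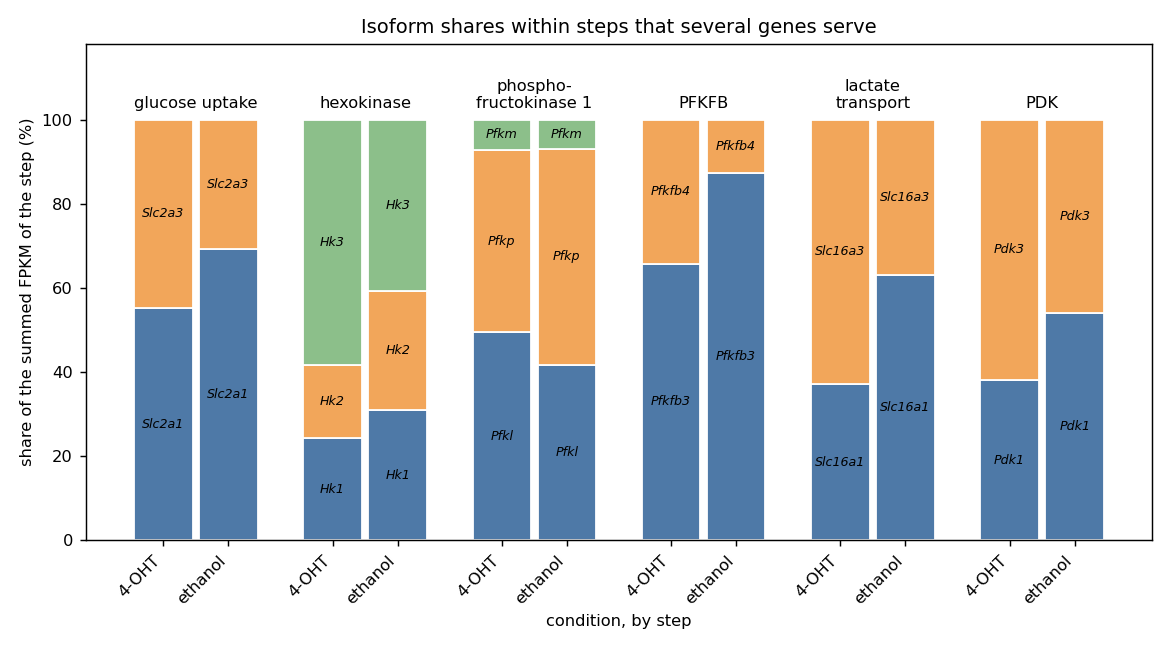
Share of each gene in the summed FPKM of its step, in percent, with 4-OHT left of ethanol for 6 steps that several listed genes serve. The segments of Slc2a3, Hk3, Pfkl, Pfkfb4, Slc16a3 and Pdk3 are taller in 4-OHT, and that of Pfkm is taller by 0.27 percentage points. Slc16a3 shows the widest shift, at 62.8% in 4-OHT and 36.8% in ethanol.

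The most abundant transcripts were those of the trunk of the pathway, from aldolase to lactate dehydrogenase together with the isomerase Gpi1. Of the 9 members with a mean of at least 100 FPKM, 7 were lower in 4-OHT, where 59.9% of the 559 rows at that level were lower. Their median log2 ratio was -0.26, and that of all rows at that level -0.19. Their summed level was 4754 FPKM in 4-OHT and 6005 FPKM in ethanol, or 1.33% and 1.73% of the FPKM listed for all genes. None of the 9 was 2-fold different, where 14.8% of the rows at that level were at least 2-fold higher and 5.19% at least 2-fold lower.

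Eno1, the ubiquitous enolase gene, had the lowest ratio of the trunk. It stood at 633 FPKM in 4-OHT and 1060.3 FPKM in ethanol, 1.67-fold lower in 4-OHT (log2 ratio -0.74; chromosome 4, 149611306 to 149622982). Pgk1, phosphoglycerate kinase, which yields the first ATP of the pathway, stood at 383 and 626 FPKM in 4-OHT and ethanol (-0.71; chromosome X, 103382463 to 103399038). Ldha, the lactate dehydrogenase subunit that favours lactate formation, had a log2 ratio of -0.56, with 723 FPKM in 4-OHT and 1064 FPKM in ethanol. Tpi1, triosephosphate isomerase, stood at 325 and 435 FPKM (-0.42). These 4 trunk genes were lower by 1.34-fold to 1.67-fold.

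The other trunk genes differed by less than 1.2-fold. Pkm2, the table's name for the pyruvate kinase M gene Pkm, stood at 859 FPKM in 4-OHT and 1017 FPKM in ethanol (-0.24) and was the most abundant member in 4-OHT. The gene is spliced into M1 and M2 forms, and its single row does not separate them. Gapdh, often used as a reference gene, stood at 593 and 657 FPKM in 4-OHT and ethanol (-0.15). Aldoa, the main aldolase gene, and Pgam1, a phosphoglycerate mutase gene, were the 2 trunk genes with higher values in 4-OHT. Aldoa stood at 680 and 594 FPKM (0.20, but 0 under quantile normalization) and Pgam1 at 324 and 271 FPKM (0.26). Neighbouring reactions thus went apart, with Pgk1 at 1.18 times the FPKM of Pgam1 in 4-OHT and 2.31 times in ethanol. The genome holds processed copies of Gapdh, Ldha, Pgk1, Pgam1, Tpi1 and Aldoa (GENCODE M21), and the sources used here do not say how reads shared with such copies were counted.

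**Figure D3:**
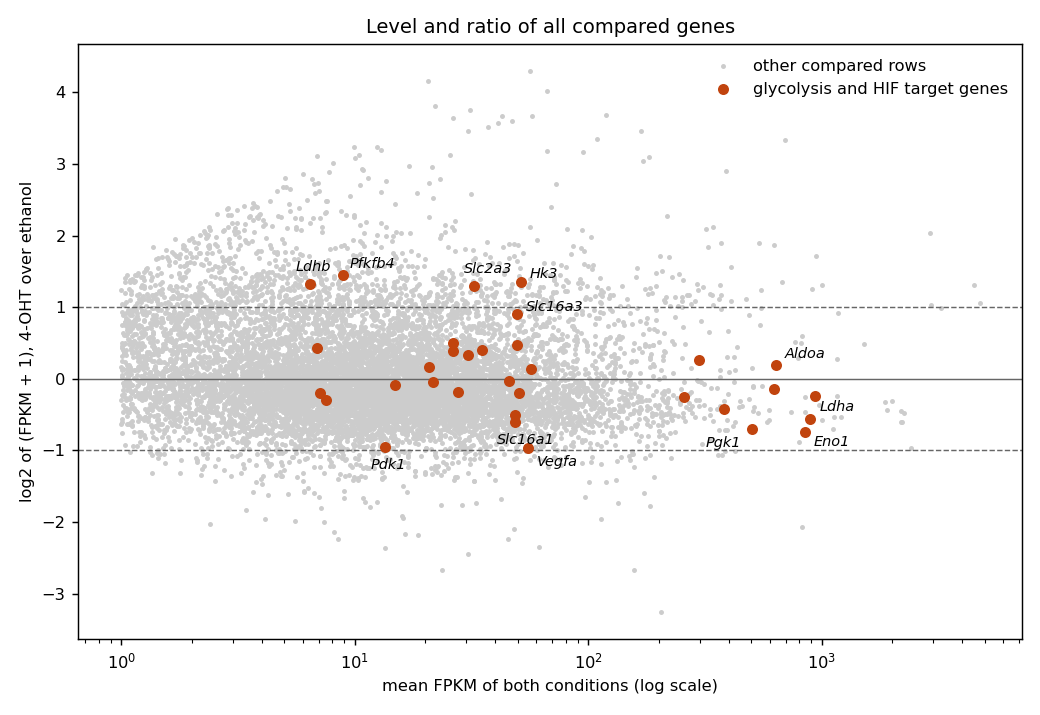
Log2 ratio of (FPKM + 1), 4-OHT over ethanol, against the mean FPKM of both conditions on a log axis for all 10856 compared rows (grey) and the 33 genes (orange), with dashed lines at 2-fold. The 4 genes above the upper line (Pfkfb4, Hk3, Ldhb, Slc2a3) have means below 100 FPKM, and 7 of the 9 genes to the right of 100 FPKM lie below 0.

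The minor tissue forms of the trunk enzymes stayed under 10 FPKM. Ldhb, the heart-type lactate dehydrogenase subunit, stood at 9.63 FPKM in 4-OHT and 3.25 FPKM in ethanol (2.50-fold, log2 ratio 1.32; chromosome 6, 142438769 to 142456463). Even so it made up 1.32% of lactate dehydrogenase FPKM in 4-OHT and 0.304% in ethanol. Aldoc, the brain-type aldolase gene, stood at 8.08 and 5.77 FPKM (0.42). Eno3, the muscle-type enolase gene, stood at 6.70 and 8.44 FPKM (-0.29). Such small values carry the least precision.

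Lactate leaves cells through monocarboxylate transporters, and here the genes of the family exchanged places. Slc16a3 encodes MCT4, a HIF target and the export form of strongly glycolytic cells, macrophages among them. It stood at 64.8 FPKM in 4-OHT and 34.3 FPKM in ethanol (1.86-fold, log2 ratio 0.90; chromosome 11, 120809798 to 120820314). Slc16a1 encodes MCT1, a MYC target in lymphoma cells, and stood at 38.3 and 58.9 FPKM in 4-OHT and ethanol (1.52-fold lower, -0.61; chromosome 3, 104442591 to 104462385). Its log2 ratio was -0.53 under median-of-ratios scaling and -0.58 under quantile normalization, just short of 1.5-fold. Slc16a3 was the more abundant of the pair in 4-OHT, with 62.8% of their sum, and Slc16a1 in ethanol, with 63.2%. The sum moved little, at 103 FPKM in 4-OHT and 93.2 FPKM in ethanol. Bsg, the chaperone gene of both transporters, stood at 192 and 148 FPKM (0.37).

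Pyruvate dehydrogenase kinases switch off pyruvate dehydrogenase, the complex that uses pyruvate inside mitochondria. Pdk1, a classic HIF-1 target, stood at 8.84 FPKM in 4-OHT and 18.1 FPKM in ethanol (1.94-fold lower, log2 ratio -0.96; chromosome 2, 71711329 to 71741915), the 336th lowest of the compared rows. The authors' deposited table, which adds no pseudocount, lists -1.03 for it, just past 2-fold. Pdk3 was near equal, at 14.4 and 15.3 FPKM in 4-OHT and ethanol (-0.09). Pdk3 therefore held 61.9% of their sum in 4-OHT and 45.9% in ethanol. Genes of the pyruvate dehydrogenase complex, its other regulators and pyruvate entry showed no member past 1.5-fold among 11 compared. Of all rows, 19.5% were higher and 12.8% lower by that much. The 11 ran from Pdhb, a subunit of the complex and the most abundant gene of the list (57.1 and 79.4 FPKM, -0.47), to Mpc2, a mitochondrial pyruvate carrier gene (35.2 and 28.8 FPKM, 0.28). Pdk4, also on the list, was not compared because its mean was under 1 FPKM. It stood at 1.19 FPKM in 4-OHT and 0.088 FPKM in ethanol (1.01).

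The 7 HIF pathway members lay on both sides of equality. Hif1a, the oxygen-labile subunit, stood at 29.9 FPKM in 4-OHT and 22.7 FPKM in ethanol (log2 ratio 0.38), although HIF-1 is controlled mainly through the stability of this protein. The prolyl hydroxylases that mark it for degradation are themselves HIF targets. Egln3 (PHD3) stood at 40.1 and 30.1 FPKM in 4-OHT and ethanol (0.40), and Egln1 (PHD2) at 21.4 and 22.0 FPKM (-0.04, or 0.03 when scaled by the median of ratios). Vegfa, the gene of a secreted angiogenic factor, had the lowest ratio of all 33, at 37.1 and 73.3 FPKM (1.95-fold lower, -0.96; chromosome 17, 46153943 to 46169326). Only 326 of the 10856 compared rows had a ratio as low or lower. Bnip3 and Bnip3l, whose proteins tag mitochondria for removal, stood at 46.8 and 54.0 FPKM (-0.20) and at 59.3 and 54.2 FPKM (0.13). P4ha1, a catalytic subunit gene of the collagen prolyl hydroxylase, stood at 33.9 and 26.9 FPKM (0.33). Of these 7 genes, 4 were higher and 3 lower, where 44.9% and 55.1% of all rows were. Past 1.5-fold was 1 of them, Vegfa, in the direction that holds 12.8% of all rows.

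**Figure D4:**
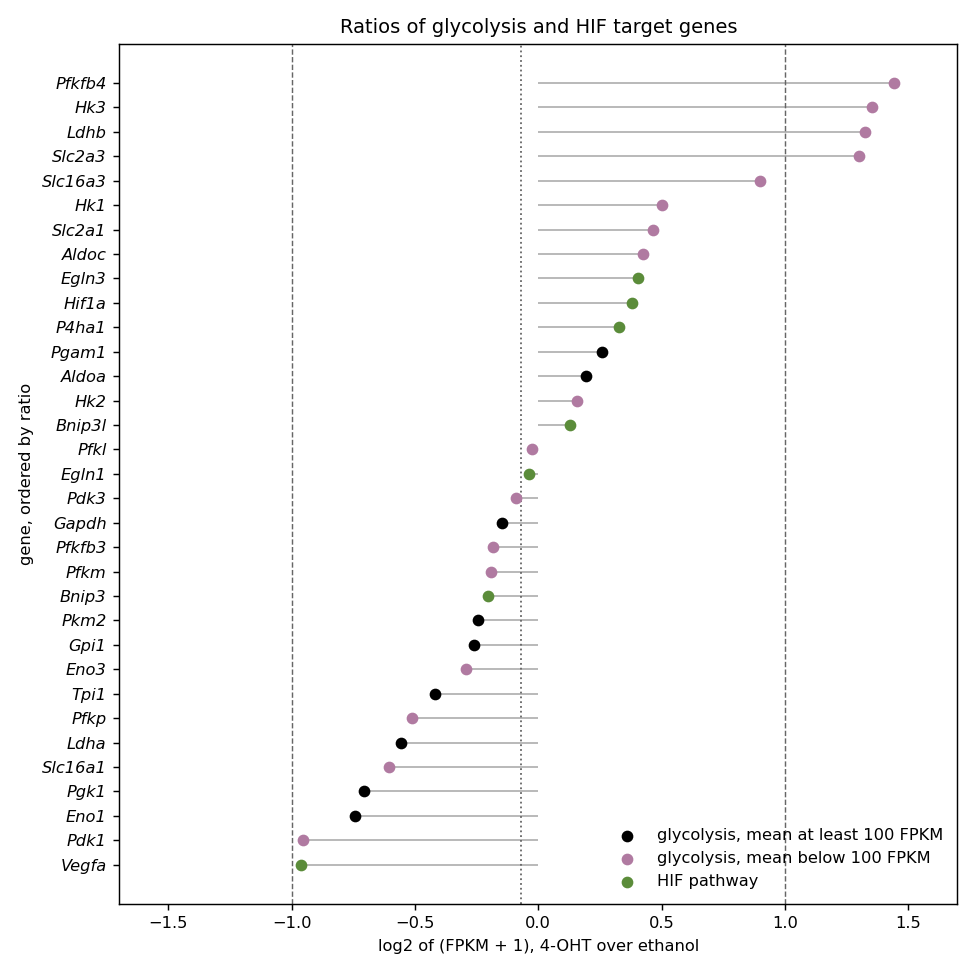
Log2 ratio of (FPKM + 1), 4-OHT over ethanol, for the 33 genes ordered by ratio, coloured by role and level, with dashed lines at 2-fold and a dotted line at the median of all compared rows (-0.07). Ratios run from -0.96 (Vegfa) to 1.44 (Pfkfb4), and the abundant trunk genes lie between -0.74 and 0.26.

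Other HIF target genes spread more widely than the members. Of 41 compared genes of that list, 11 were at least 2-fold higher and 2 at least 2-fold lower (background 10.4% and 2.58%), with a median log2 ratio of 0.16 against -0.07 over all rows. The highest was Lox, a collagen crosslinking enzyme gene, at 13.3 FPKM in 4-OHT and 1.84 FPKM in ethanol (2.33). Car12, a membrane carbonic anhydrase gene, was the lowest, at 2.34 and 7.24 FPKM in 4-OHT and ethanol (-1.30). Anxa2, a membrane-binding annexin gene, was the most abundant, at 360 and 130 FPKM (1.47). Among genes chosen after their values were seen, P4ha2 (2.18), Plod2 (2.02) and Plod1 (1.44) modify collagen, as does Lox. Stc2 (-1.18) and Ankrd37 (-0.93) are HIF targets that were lower, like Vegfa and Pdk1. In the same comparison all 11 compared stromal markers were at least 2-fold higher (median 3.64). Their sums were 671 FPKM in 4-OHT and 48.4 FPKM in ethanol. They ran from Fstl1 (1.27), a secreted glycoprotein gene, to the collagen gene Col3a1 (4.30), with Col1a1 the most abundant at 127 and 6.91 FPKM. Their part in the ratios of the collagen-modifying HIF targets was not tested.

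The remaining HIF regulators were close to equal. Of 19 compared, 10 were higher and 9 lower, against 44.9% and 55.1% of all rows, and the median was 0.02 (-0.05 under quantile normalization). At least 2-fold higher was 1 of the 19, where 10.4% of all rows were, and none was at least 2-fold lower, where 2.58% were. Epas1, which encodes HIF-2 alpha, a subunit of endothelial cells and macrophages among others, was the only one at least 2-fold different, at 10.0 FPKM in 4-OHT and 3.44 FPKM in ethanol (1.31). Ube2s, a ubiquitin-conjugating enzyme gene also needed in mitosis, was the lowest, at 152 and 252 FPKM in 4-OHT and ethanol (-0.73). Tceb2, which encodes elongin B of the VHL ubiquitin ligase, was the most abundant, at 235 and 261 FPKM (-0.15). Arnt, the constant partner of HIF-1 alpha, stood at 13.5 and 13.3 FPKM (0.02).

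Glycolysis genes outside the 33 were mostly low. Of 34 matched, 13 were compared, 11 higher and 2 lower in 4-OHT (7 and 6 under quantile normalization), with a median of 0.20. Of all rows, 44.9% were higher and 55.1% lower. At least 2-fold higher were 3 of the 13 (23.1%, or 2 genes under quantile normalization), where 10.4% of all rows were. The 13 ran from Pgam5, a mitochondrial phosphatase gene of the mutase family (-0.57), to Galm, which encodes aldose 1-epimerase and stood at 6.25 FPKM in 4-OHT and 2.14 FPKM in ethanol (1.21).

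In the pentose phosphate list 5 of 11 genes were higher and 6 lower (median -0.07), and 1 was at least 2-fold higher and 0 at least 2-fold lower, against 10.4% and 2.58% of all rows. G6pdx, the entry enzyme gene, stood at 63.3 FPKM in 4-OHT and 27.8 FPKM in ethanol (1.16). Taldo1, a transaldolase gene, was the most abundant, at 236 and 145 FPKM in 4-OHT and ethanol (0.70). Prps2, which commits ribose to nucleotides, was the lowest, at 18.0 and 36.8 FPKM (-0.99). Among 18 genes of other branches 12 were higher (median 0.17), 2 of them at least 2-fold. Another 3 were at least 2-fold lower, or 2 under either scaling. Pygl, a glycogen phosphorylase gene, was highest, at 72.2 and 19.0 FPKM (1.88). The serine synthesis genes Psph (28.7 and 76.9 FPKM, -1.39), the lowest, and Phgdh (143 and 309 FPKM, -1.11), the most abundant, draw on a glycolytic intermediate.

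In the citric acid cycle list, which also holds cytosolic enzymes, 17 of 23 genes were lower (73.9%, against 55.1% of all rows). The list median was -0.38. The lowest was Idh2 (50.6 FPKM in 4-OHT and 88.7 FPKM in ethanol, -0.80), and Mdh2 was the most abundant (234 and 338 FPKM, -0.53). Idh1, the cytosolic isocitrate dehydrogenase gene, was the highest, at 88.0 and 40.1 FPKM in 4-OHT and ethanol (1.12). Of 4 compared gluconeogenesis genes, 3 were lower. Pck2, the mitochondrial carboxykinase gene, was the lowest and most abundant, at 30.2 and 66.5 FPKM (-1.11), and G6pc3 was at 13.8 and 13.0 FPKM (0.08).

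**Figure D5:**
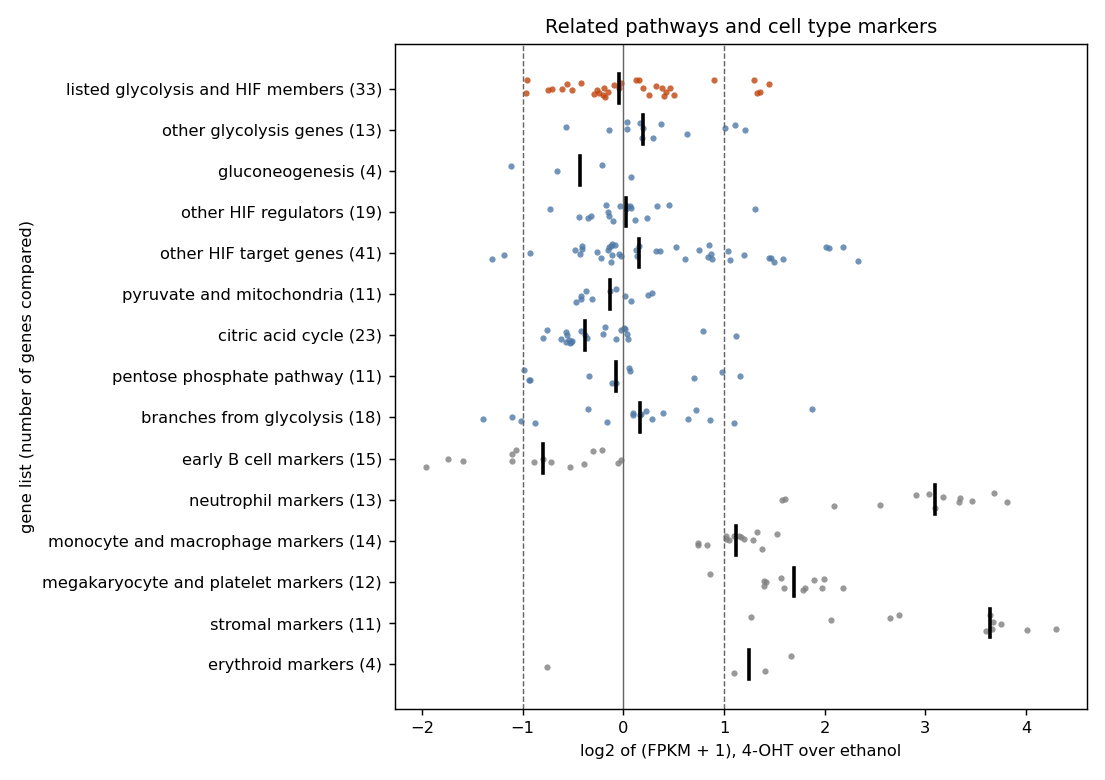
Log2 ratio of (FPKM + 1), 4-OHT over ethanol, of each compared gene in the 33-member list (orange), 8 related pathway lists (blue) and 6 cell type marker lists (grey), with a black bar at each list's median and dashed lines at 2-fold. The members span -0.96 to 1.44 around a median of -0.04, while the medians of the neutrophil and stromal markers are 3.10 and 3.64 and that of early B cell markers is -0.80.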

How the data were processed

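Messenger RNA of 6 libraries, 3 treated with 4-OHT and 3 with ethanol, was measured by paired-end sequencing, per the labels' protocols. The deposited table holds FPKM values made by the authors, 1 per gene and condition, and a log2 fold change deposited by the authors, which equals log2 of 4-OHT over ethanol within 0.01 in all 15756 rows above 0 in both. CASAVA, TopHat2 (2.0.9), Cufflinks (2.1.1) and build mm9 are named, per the submitters' processing notes. How libraries were pooled, and the read depth, are not given there, so no counting interval is printed and the planned tests over libraries were not possible.

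A row was compared if its mean reached 1 FPKM and neither value was 0. Ratios used a pseudocount of 1 FPKM. Loci are on mm9, with 1 added to each start. Those of Hk1, Hk3, Pfkp, Pfkm and Tpi1 also cover another gene. Promoter windows came from RefSeq on GRCm38.p6. The planned comparison of proteins was not made.

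The members, the 14 gene lists and the rule for named genes were chosen with earlier results of these data known. The rule takes all members and, from each other list, the highest and lowest ratio and the highest mean. Other genes were named after their values were seen. Software was Python (3.11.15) with numpy (2.4.6), pandas (2.3.3) and, for figures, matplotlib (3.10.9).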

Additional observations from a re-analysis of the deposited data

How the results depend on the processing

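The 8 alternatives run were pseudocounts of 0.1 and 0.5, the authors' deposited fold changes, a minimum mean of 5 FPKM, no filter, median-of-ratios scaling, quantile normalization, and merged rows left out. The minimum mean of 5 FPKM, no filter and merged rows left out kept all 33 members at unchanged ratios. Their counts of members were thus fixed in advance. Under each of the 8 alternatives 4 members (12.1%) were at least 2-fold higher. Of all rows, between 5.64% (no filter) and 14.1% (the authors' deposited fold changes) were. The count of members at least 2-fold lower was 0, but 1 at a pseudocount of 0.1 and 1 in the authors' deposited fold changes, and that gene was Pdk1 (log2 ratios of -1.02 and -1.03). In those settings 4.21% and 4.44% of all rows were at least 2-fold lower. A smaller pseudocount by construction makes the ratio of a low gene larger. Only median-of-ratios scaling and quantile normalization could change a direction, because the other alternatives keep the sign of a member's ratio by construction. Of the 33 genes, 31 did not change direction under either scaling. Pfkl and Egln1 did, within 0.05 of equality, and Aldoa was at 0 under quantile normalization. The count at least 1.5-fold lower was 5, and 4 under both scalings, which left out Slc16a1. Of all rows, 9.88% under median-of-ratios scaling and 15.1% under quantile normalization were that much lower. The member median ran from -0.04 to 0.03, and median-of-ratios scaling adds 0.08 to every log2 ratio taken without a pseudocount. Summed FPKM per step stayed within 1.5 times, and isoform shares within 5 percentage points, under both scalings. Median-of-ratios scaling multiplies each condition by a constant, so it cannot change a share and moves the ratio of every step sum alike. Only quantile normalization could change the shares. No paired analysis was possible because libraries were pooled to a single value per condition, and single libraries could not be left out for the same reason. Without counts, the precision of each value is unknown.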
